A study of Gossypium hirsutum with 16 samples.

Results

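The genes described here are the 150 cotton genes with the steepest graded difference between silenced and control shoot apices in both of 2 strains. They were chosen by a rule on measured levels. A gene had to have a median of 1 FPKM or more in the controls of each strain, and a silenced median between 2 and 8 times the control median in each strain. FPKM counts the fragments mapped to a gene per unit of its length, scaled to the mapped fragments of the library. Of 70422 gene IDs in the table, 44812 had both control medians at 1 FPKM or more, 362 of these met the rule, and the 150 with the highest smaller ratio of the strains were kept. The ratios are thus a property of the choice and are given without a test.

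The material is messenger RNA of the shoot apex (stem tip) of upland cotton (Gossypium hirsutum) at the seedling stage, in 16 libraries. There are 4 libraries in each of 4 groups: 3798 control, 3798 with GhBRC1 silenced, Jinxian-short branch control and Jinxian-short branch with GhBRC1 silenced. Strain 3798 is labelled nulliplex-branch, a form in which flowers sit on the main stem without a long fruiting branch. Jinxian-short branch (JX below) is labelled as having short fruit branches. The method of silencing was VIGS, virus-induced gene silencing, in which an engineered virus bears a piece of the target and the plant's RNA interference then acts on the matching transcript. The labels do not give the virus, what the controls received, plant age in days, or whether a library came from 1 plant or from a pool. The p-values below therefore measure the spread between these libraries, which may be technical.

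BRC1 belongs to the TCP family of plant transcription factors. In Arabidopsis, pea and other plants it acts inside axillary buds, where it holds back their outgrowth and receives signals from hormones such as strigolactones and cytokinins. Upland cotton is an allotetraploid with an A and a D subgenome, so that many genes exist as a pair of closely similar copies, between which the counting of reads may have been uncertain. The IDs were looked up among 99454 RefSeq genes and 0 matched, and the files do not pair the IDs with names. The genes are therefore given by ID, with the chromosome that the ID names and with no function. The silenced transcript itself, and markers of the shoot apex, were not analysed here for the same reason, so the labels silenced and control stand without a check by the target gene.

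The libraries summed to between 552185 and 603167 FPKM, with sequencing depth relative to 3798 control 1 between 0.909 and 1.33. Absolute depth is unknown, so no limit from counting error can be given. Library 3 of the 3798 controls and libraries 4 of both silenced groups lie apart from their groups, with weights of 0.283, 0.603 and 0.424 when libraries are weighted by their spread, against 0.898 to 1.67 in the 13 others. The counts of members called and of genes that met the rule are given below with and without them. The ratios, shares of FPKM, overlap counts and spreads of the members are given only with them.

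The 150 genes were mostly at low to moderate levels. Their control medians had a median of 3.21 FPKM in 3798 (range 1.03 to 292) and of 2.49 FPKM in JX (range 1.001 to 174). Their silenced medians had a median of 10.4 FPKM in 3798 (range 3.11 to 1453) and of 10.2 FPKM in JX (range 2.63 to 1378). By the mean of the control medians, 41 genes lay under 2 FPKM, 66 from 2 to 5, 23 from 5 to 10, 15 from 10 to 50 and 5 above 50 FPKM. The levels thus spanned a wide range. The rule bounds the ratios on both sides but sets no upper limit on level, so the spread of level and of ratio cannot be compared.

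The ratio of silenced to control medians had a median of 2.99 in 3798 (range 2.43 to 7.45) and of 3.64 in JX (range 2.45 to 7.93). In 105 of the 150 genes the ratio was larger in JX and in 45 it was larger in 3798. The ratio was 4 or more in both strains for 17 genes, and 3 or more in both for 57. The ratios of the strains lay more than 2-fold apart in 15 genes, and the median fold between them was 1.28. Over the 150 genes the ratios had a Spearman rho of 0.34, given as a description since the rule truncates both. The smaller ratio bore little relation to the control level (Spearman rho 0.11 over the 150 genes).

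**Figure D1:**
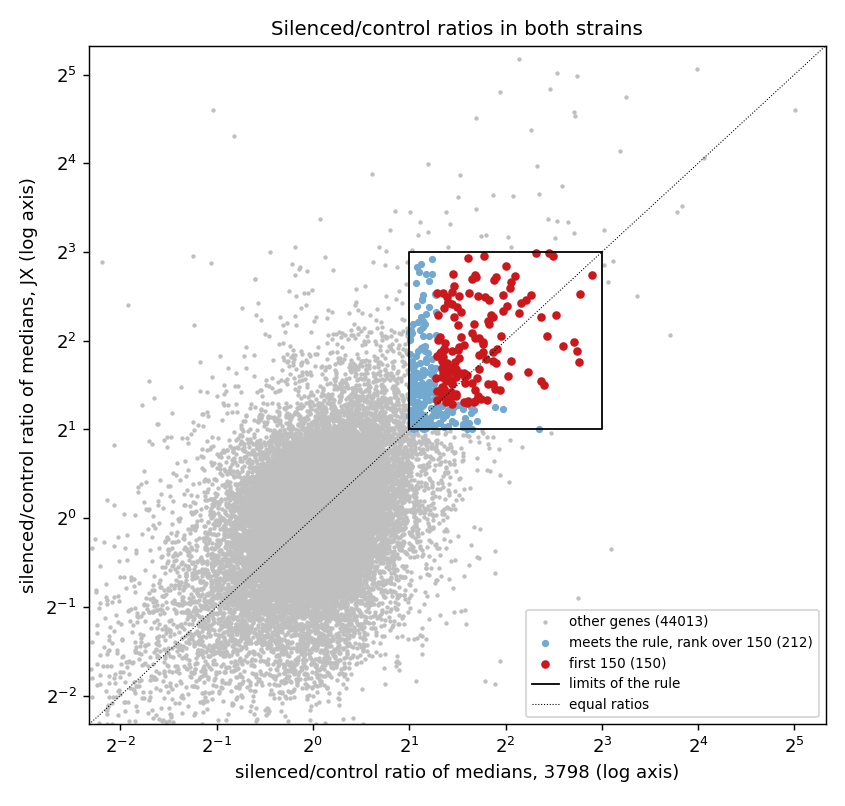
Silenced/control ratio of group medians in 3798 (x, log axis) and JX (y, log axis) for genes with both control medians at 1 FPKM or more. Red points are the 150 genes described, blue points the 212 others that met the rule, grey points 44013 other genes, with 437 outside the axes. The red points lie above 2.43 on both axes, and more of them (105) lie above the line of equal ratios than below it (45).

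At the lower edge of the list, Gh_D05G064200 (chromosome D05) and Gh_D04G191500 (chromosome D04) were the last genes inside, with smaller ratios of 2.44 and 2.43. The next IDs outside were Gossypium_hirsutum_newGene_4839, an ID without position, at 2.43, and Gh_A13G030200 (chromosome A13), also at 2.43. Inside and outside thus differ by less than 0.01 in the ratio. At the upper edge, 55 genes had both ratios at 2 or more and at least 1 above 8 and were left out. Among them Gh_D06G211200 (chromosome D06) had ratios of 142 in 3798 and 338 in JX, and Gh_A08G002100 (chromosome A08) 32.1 and 24.2. The member nearest to the upper limit was Gh_A05G280600, with a ratio of 7.93 in JX, followed by Gh_A01G068100 at 7.91 in JX.

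The genes with the highest smaller ratio are described first, library by library in the order 1 to 4. Gh_D08G005100 (chromosome D08) had the highest smaller ratio, with 7.45 in 3798 and 6.66 in JX. It was at 2.86, 0.916, 1.19 and 1.23 FPKM in the 3798 controls and at 9.63, 9.65, 7.09 and 8.37 FPKM in the silenced libraries. In JX it was at 0.949, 1.64, 1.74 and 1.42 FPKM in the controls and at 8.62, 13.9, 8.45 and 11.8 FPKM in the silenced libraries. Each of the 8 silenced libraries thus lay above each of the 8 controls, and 3798 control 1 was the highest control.

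Gh_D04G186300 (chromosome D04) was at 4.87, 2.95, 2.76 and 6.67 FPKM in the 3798 controls and at 27.7, 37.8, 25.8 and 15.1 FPKM in the silenced libraries. In JX it was at 4.71, 4.76, 3.89 and 4.17 FPKM in the controls and at 26.02, 30.5, 25.01 and 15.6 FPKM in the silenced libraries. Library 4 was the lowest silenced library in each strain, and still more than 2-fold above the highest control. The ratios of medians were 6.85 in 3798 and 5.74 in JX.

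Gh_A03G026100 (chromosome A03) had ratios of 5.62 in 3798 and 7.76 in JX. Its 3798 libraries were at 2.46, 5.16, 1.83 and 3.04 FPKM in the controls and at 9.91, 19.7, 35.1 and 11.2 FPKM when silenced. Its JX libraries were at 4.26, 2.31, 1.74 and 1.54 FPKM in the controls and at 14.1, 19.4, 17.4 and 8.78 FPKM when silenced. The groups did not overlap in either strain, but the silenced 3798 libraries spread over more than 3-fold.

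Gh_A01G068100 (chromosome A01) had ratios of 5.46 and 7.91. In 3798 the controls were at 2.13, 1.21, 0.952 and 3.77 FPKM and the silenced libraries at 8.87, 9.37, 20.2 and 4.06 FPKM. In JX the controls were at 3.22, 0.964, 1.02 and 1.84 FPKM and the silenced libraries at 15.9, 6.77, 24.3 and 5.95 FPKM. Silenced library 4 in 3798 lay just above the highest control, and silenced library 3 was the highest in each strain.

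Gh_A05G280600 (chromosome A05) was the most abundant member, with a mean of 812 FPKM over the 16 libraries. Its levels in 3798 were 291, 565, 243 and 294 FPKM in the controls and 1391, 1516, 1610 and 751 FPKM in the silenced libraries. In JX they were 225, 161, 159.9 and 187 FPKM in the controls and 1935, 820.0, 2064 and 785 FPKM in the silenced libraries. The JX silenced libraries fell into a high pair, 1 and 3, and a low pair, 2 and 4. As group means this was 348 ± 147 and 1317 ± 388 FPKM in 3798 controls and silenced and 183 ± 30.5 and 1401 ± 693 FPKM in JX (SD, n = 4).

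The remaining 3 of the leading 8 had no overlap between controls and silenced libraries in either strain. Gh_D11G162200 (chromosome D11) was at 1.14 ± 0.708 FPKM in the 3798 controls, with control 1 at 0.229 FPKM, and at 6.91 ± 0.712 FPKM in the 3798 silenced libraries (SD, n = 4). Its JX means were 1.35 ± 0.279 FPKM in controls and 6.68 ± 1.71 FPKM when silenced (SD, n = 4). Gh_A04G026300 (chromosome A04) was at 8.40 ± 1.91 and 40.4 ± 8.503 FPKM in 3798 and at 10.5 ± 1.63 and then 53.8 ± 20.5 FPKM in JX (SD, n = 4). Here JX silenced 4, at 83.4 FPKM, was the highest library, so library 4 was not low in every member. Gh_D06G194600 (chromosome D06) was at 16.5 ± 3.02 and 75.9 ± 13.3 FPKM in 3798 and at 15.9 ± 1.29 and then 88.2 ± 8.66 FPKM in JX (SD, n = 4).

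**Figure D2:**
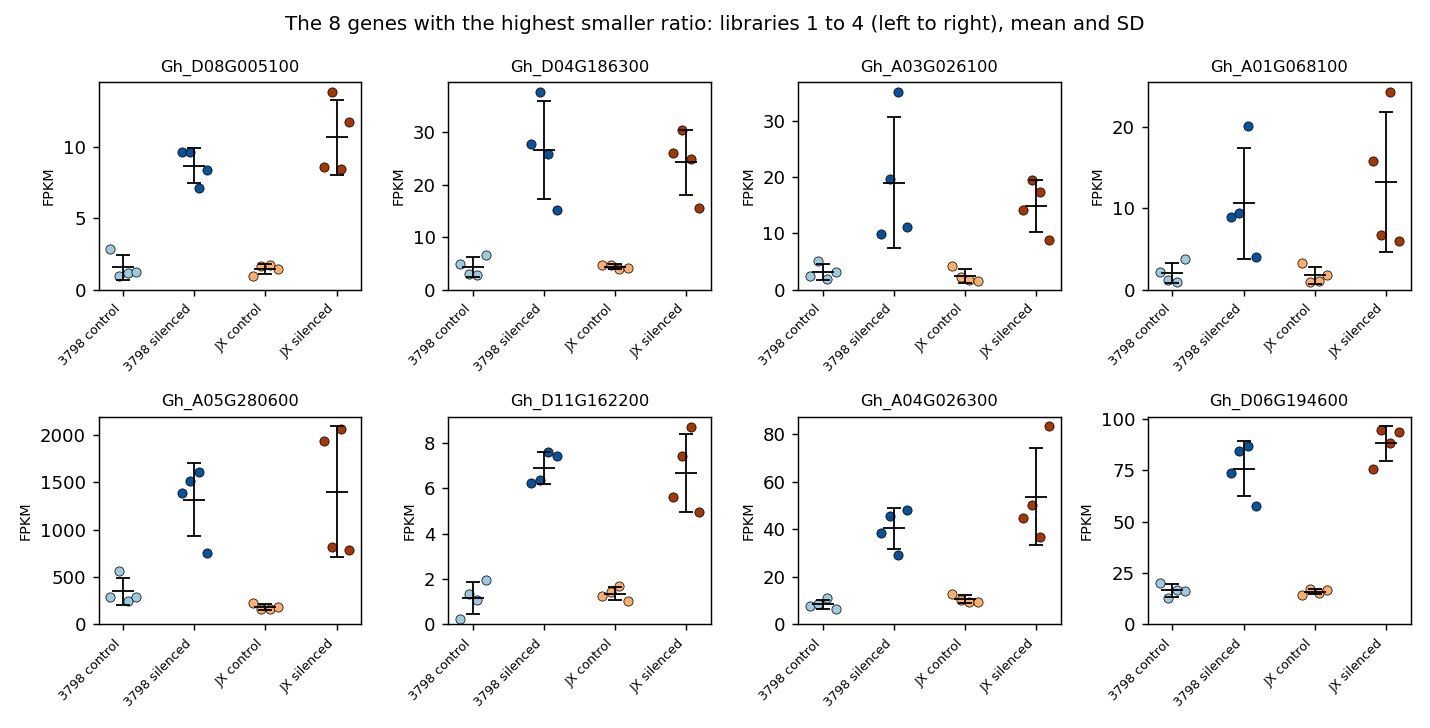
FPKM of the 8 genes with the highest smaller ratio in each of the 16 libraries (points, libraries 1 to 4 from left to right within a group), with the group mean and SD as bars. In each panel the silenced groups stand above the controls of their strain, and Gh_A01G068100 and Gh_A05G280600 show the wide spread of the JX silenced libraries (5.95 to 24.3 and 785 to 2064 FPKM).

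Other abundant members were Gh_D05G344400 (chromosome D05), Gh_D02G050700 (chromosome D02) and Gh_A12G059200 (chromosome A12), with means over 16 libraries of 281, 220.2 and 142 FPKM. Gh_D05G344400 had 3798 means of 167 ± 111 FPKM in controls and 407 ± 94.0 FPKM when silenced (SD, n = 4). The silenced libraries overlapped with the controls there, since 3798 control 4 was at 319 FPKM and 3798 silenced 4 at 274 FPKM. In JX its groups of 108 ± 37.8 and 443 ± 153 FPKM (SD, n = 4) did not overlap. Gh_D02G050700 was at 98.8 ± 47.6 and 335 ± 73.9 FPKM in 3798 and at 102 ± 23.2 and then 346 ± 48.1 FPKM in JX (SD, n = 4), without overlap in either strain. Gh_A12G059200 was at 96.2 ± 37.3 and 207 ± 50.02 FPKM in 3798, where 3798 silenced 4 (135 FPKM) lay below 3798 control 1 (148 FPKM), and at 45.2 ± 16.6 and then 220.0 ± 29.5 FPKM in JX (SD, n = 4).

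Summed over the 150 genes, the share of all FPKM was 0.291% ± 0.0479 in 3798 controls and 0.912% ± 0.159 in 3798 silenced libraries, and 0.207% ± 0.0257 and 0.929% ± 0.226 in JX (SD, n = 4). Single libraries ranged from 0.679 to 1.18% when silenced and from 0.179 to 0.347% in controls. Gh_A05G280600 alone was a large part of these sums. Without the most abundant member of each library the range was 0.545 to 0.816% when silenced and 0.152 to 0.289% in controls. In bulk tissue, more cells of a type and more RNA per cell cannot be told apart.

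Of the 150 genes, 119 had every silenced library above every control in 3798, 139 in JX and 115 in both strains. Over all 44812 genes with both control medians at 1 FPKM or more, the shares were 7.38%, 13.5% and 3.33%. As the rule used these contrasts, the counts are a description. In 35 members the groups overlapped in at least 1 strain although the medians differed more than 2.43-fold.

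**Figure D3:**
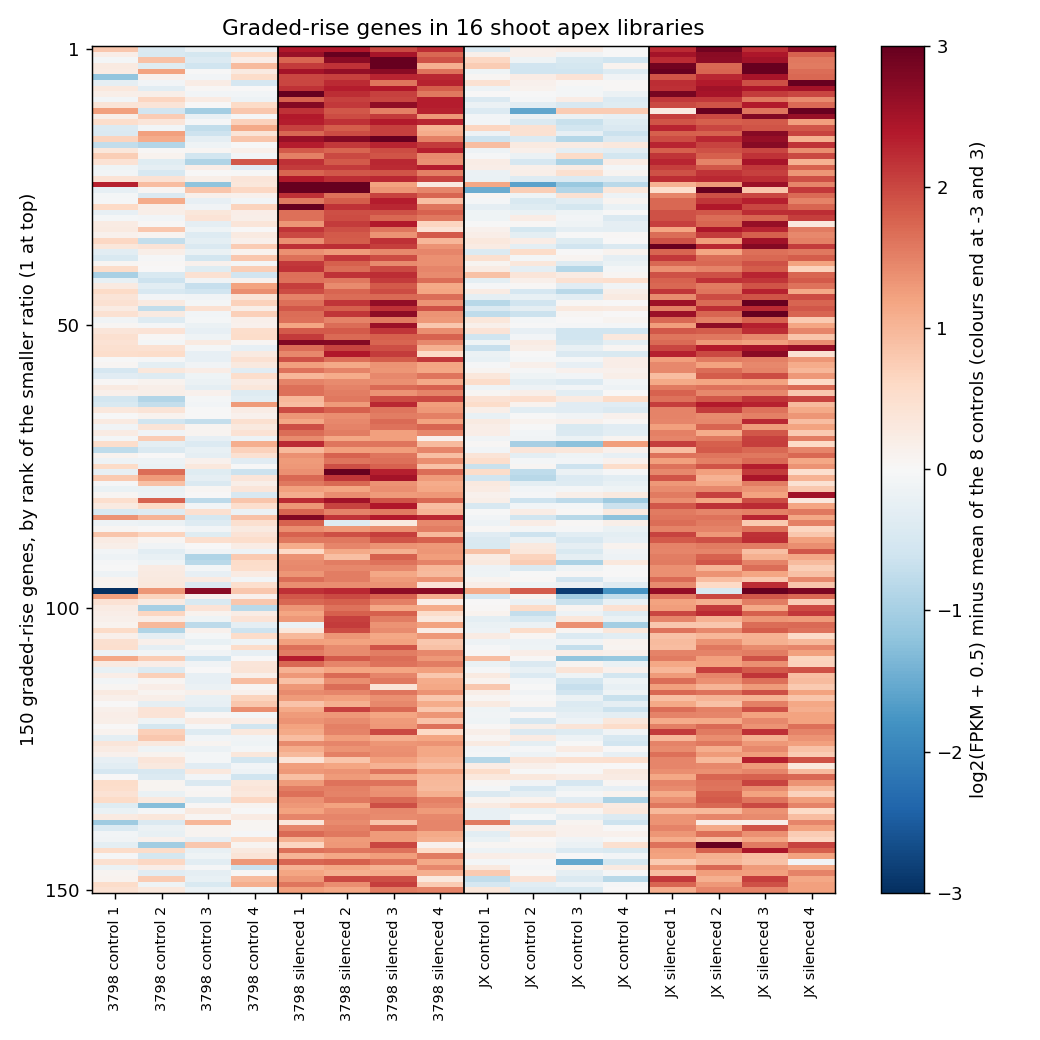
The 150 genes (rows, by rank of the smaller ratio) in the 16 libraries (columns); colour is log2(FPKM + 0.5) minus the gene's mean over the 8 controls, ending at -3 and 3. The silenced blocks are red in nearly every row, while a few rows, such as rank 97 (Gh_A03G010000), are uneven within groups.

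Replicates of the 150 genes were more spread than the 44812 genes with both control medians at 1 FPKM or more, which include them and were not matched on level. On the log2(FPKM + 0.5) scale, the within-group SD averaged over the 4 groups had a median of 0.336 over the members and of 0.196 over those 44812 genes, and 12 members lay under the latter value. The rule used these libraries, so no test is given. The SD was above the general median in each group, where the members' medians were 0.357 (3798 controls), 0.280 (3798 silenced), 0.275 (JX controls) and 0.338 (JX silenced), against 0.217, 0.178, 0.158 and 0.196.

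The steadiest members were Gh_D08G269900 (chromosome D08) and Gh_D11G181000 (chromosome D11). Gh_D08G269900 was at 5.49, 5.76, 5.69 and 5.09 FPKM in 3798 controls, 18.9, 17.2, 18.9 and 17.7 FPKM in 3798 silenced, 6.37, 7.18, 7.15 and 6.87 FPKM in JX controls and 18.3, 18.2, 18.7 and 15.1 FPKM in JX silenced libraries. Gh_D11G181000 was at 3.63 ± 0.194 and 10.3 ± 0.778 FPKM in 3798, controls before silenced, and at 3.36 ± 0.386 and then 10.3 ± 0.648 FPKM in JX (SD, n = 4). In these genes all 8 silenced libraries lay more than 2-fold above all 8 controls.

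The least steady members were Gh_A03G010000 (chromosome A03) and Gh_A10G222400 (chromosome A10), with within-group SDs of 1.68 and 1.19 on the log2 scale. Gh_A03G010000 was at 2.85, 77.1, 199.6 and 53.4 FPKM in 3798 controls and at 139.9, 147, 198 and 202 FPKM in the silenced libraries. In JX it was at 66.7, 109.5, 3.79 and 8.55 FPKM in the controls and at 190.2, 21.5, 259 and 217 FPKM in the silenced libraries. Controls and silenced libraries overlapped in each strain, and the ratios of 2.65 and 5.41 rest on which libraries form the medians. Gh_A10G222400 overlapped likewise, with controls from 1.07 to 17.6 FPKM and silenced libraries from 3.96 to 31.6 FPKM in 3798, and with 0.687 to 7.56 and 7.01 to 21.0 FPKM in JX. A single member, Gossypium_hirsutum_newGene_9378, was listed at 0 in a library (JX control 2), and in JX it ranged up to 1.99 FPKM in controls and from 1.26 to 29.6 FPKM when silenced, a gene chosen for mention after its values were seen.

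The libraries of a group did not contribute alike. For each library, the level of each member was placed on a log2 line from the median of the other controls (0%) to the median of the other silenced libraries (100%) of its strain. The median position over the members was 81.2% for 3798 silenced 4 and 79.0% for JX silenced 4, against 96.5 to 109% and 99.8 to 114% for the 3 others of these groups. Among the controls it was -19.5% for 3798 control 3 and 13.1% for 3798 control 4, and it lay between -7.84 and 6.75% in the 6 others.

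Silenced library 4 was the lowest of its group in 80 members in 3798 and in 85 members in JX, and in 48 members in both. Over the 44812 genes it was the lowest in 31.3%, 30.7% and 13.7%. 3798 control 3 was the lowest control in 80 members, against 29.1% of the 44812 genes. Silenced library 3 was the highest of its group in 51 members in 3798 and in 76 in JX, against 19.3 and 24.5% of the 44812 genes. Relative depth was highest in these libraries, at 1.33 and 1.26, with 1.01 and 1.10 in silenced libraries 4, and its part in the order of libraries was not tested.

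The deviations from group means were partly shared among members. Across the 16 libraries, 69 of 150 members (46.0%) had a Pearson r above 0.5 with the median deviation of the other members, and 27 had an r below 0. Of the 44812 genes, 15.8% had an r above 0.5 with the members' median deviation and 52.7% an r below 0. The points are the same libraries, at their own depths, and the members were chosen on them, so these correlations are a description.

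**Figure D4:**
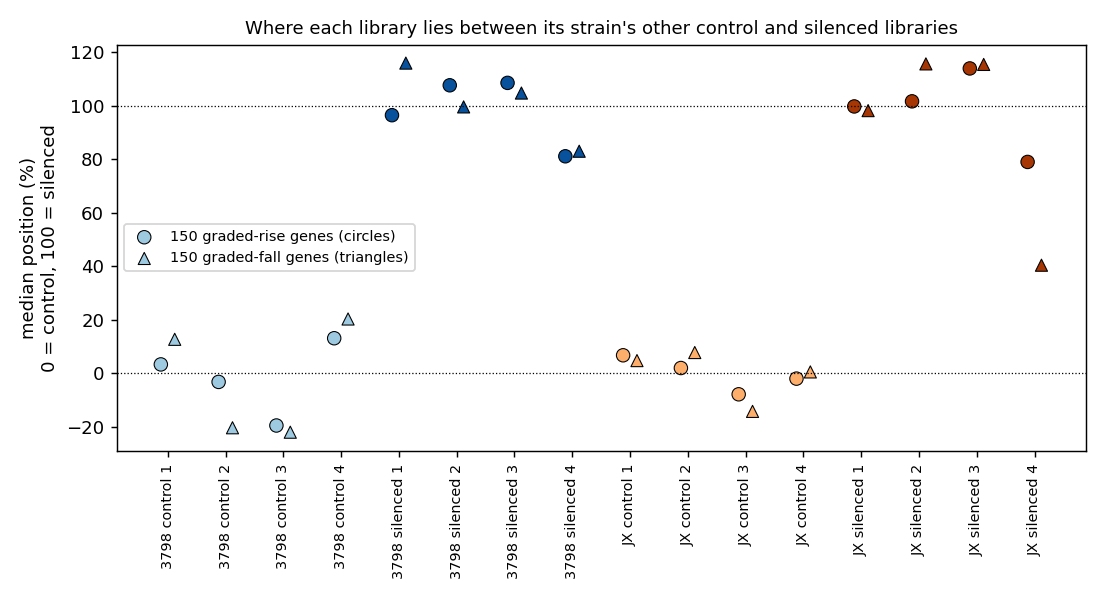
Median position of each library between the other controls (0%) and the other silenced libraries (100%) of its strain, over the 150 graded-rise genes (circles) and over 150 genes chosen by the same rule with control and silenced exchanged (triangles). Circles of libraries 4 of the silenced groups lie near 80%, and the triangle of JX silenced 4 lies at 40.4%.

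A measure that the choice did not use was had by choosing genes without the 4 libraries of 1 number and reading the silenced/control ratio in those 4. Of the 150 genes chosen without libraries 3, 129 (86.0%) had a ratio of 2 or more in both strains in libraries 3, against 3.11% of all genes with both control medians at 1 FPKM or more. Without libraries 2 it was 113 (75.3%) against 1.36%, and without libraries 1 it was 95 (63.3%) against 0.897%. Without libraries 4 it was 51 (34.0%) against 0.614%. In each case the share was above that of all genes, and it was lowest in libraries 4. It concerns genes chosen anew each time and not the 150 members as such, in libraries that may be technical repeats. Each ratio set a silenced library against the control of the same number, although the numbers did not meet a criterion for pairing (below). Libraries 3 hold the 3798 control with the lowest median position (-19.5%) and libraries 4 the one with the highest (13.1%). The order of the shares may depend on this matching, which was not tested.

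In the left-out libraries 4 the median ratio of the chosen genes was 1.81 in 3798 and 2.66 in JX, where all genes had medians of 1.004 and 1.002. In the left-out libraries 3 it was 3.32 and 3.92, against 0.951 and 0.985. A silenced level above the control in both strains was seen for 122 of 150 chosen genes in libraries 4 and for 140 to 147 in the others, against 24.2 to 33.0% of all genes. Between 101 and 111 of the genes so chosen are among the 150 members.

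The strains were compared next within controls and within silenced libraries, contrasts which the rule did not use directly. Differences are JX minus 3798 on the log2(FPKM + 0.5) scale, where changes of low genes come out too small, tested by limma over 55040 genes. All 150 members were among those tested, as their control medians of 1 FPKM or more ensure. The controls of these tests also enter the ratios of the rule, so a gene low in JX controls tends to have a larger ratio in JX. The rule also set a floor on both control medians and bounded both ratios. The members' counts, directions and p-values are those of genes chosen partly on these values, and are a description.

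In the controls, 19 of 150 members (12.7%) differed between the strains by limma at an adjusted p under 0.05, 12 lower and 7 higher in JX. Of all genes tested 29.8% differed, 12.2% lower and 17.6% higher. The members' share was thus below the background, while the median standard error was 0.236 for members and 0.164 for all genes. Members also had to pass the floor of 1 FPKM in the controls of both strains and the bounds on the ratios. All genes tested did not, so the shares are not of like genes. The direction also differed from the background: the log2 difference was below 0 in 104 members (of all genes tested, in 47.0%), and its median was -0.22 over members and 0.03 over all genes. Every JX control lay below every 3798 control in 10 of the 150 members, against 11.6% of the 44812 genes. It lay above in 6 of the 150, against 15.6%.

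Library 3 of the 3798 controls bears on this count. Without it 35 members (23.3%) were called by limma, against 38.8% of all genes. Of these members 24 were lower and 11 higher in JX, where 15.8% of all genes were called lower and 23.1% higher. Without it and both silenced libraries 4 there were 45 members (30%), against 42.0% of all genes. They were 33 lower and 12 higher, where 17.4% of all genes were called lower and 24.7% higher. The median over members was then -0.27 in either case. With libraries weighted by their spread 43 members (28.7%) were called, against 43.2% of all genes. They were 33 lower and 10 higher, where 18.1% of all genes were called lower and 25.1% higher.

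The member with the smallest p was Gh_A05G149100 (chromosome A05). It was at 9.66, 9.75, 8.10 and 9.23 FPKM in the 3798 controls and at 6.08, 5.33, 5.21 and 5.29 FPKM in the JX controls. No JX control reached the lowest 3798 control, and the difference was -0.70 (SE 0.0976, limma adjusted p = 0.0016). When silenced it was at 39.2, 34.7, 35.8 and 30.4 FPKM in 3798 and at 34.8, 35.9, 35.0 and 28.7 FPKM in JX. The log2 difference there was -0.06 (SE 0.0976, limma adjusted p = 0.89), and the groups overlapped.

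Gh_A06G001900 (chromosome A06) was lower in JX controls, at 1.31 ± 0.299 against 2.63 ± 0.627 FPKM (SD, n = 4). The log2 difference was -0.78 (SE 0.170, limma adjusted p = 0.0048). In the silenced libraries its mean was 7.15 ± 1.45 FPKM for JX, against 11.1 ± 0.630 FPKM for 3798 (SD, n = 4). Each silenced JX library lay below each silenced 3798 library, but the difference of -0.62 did not pass over all genes (SE 0.170, limma adjusted p = 0.50). Gh_A12G059200, described above, was also lower in JX controls, with a difference of -1.07 (SE 0.269, limma adjusted p = 0.0088).

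Among members higher in JX controls, Gh_D09G014100 (chromosome D09) was at 2.95, 2.25, 4.31 and 3.58 FPKM in 3798 and at 6.31, 6.71, 5.58 and 7.07 FPKM in JX. The difference was 0.90 (SE 0.203, limma adjusted p = 0.0054). Gh_D05G008600 (chromosome D05) was at 4.09, 3.63, 6.41 and 7.02 FPKM in 3798 controls and at 14.02, 8.74, 8.49 and 8.94 FPKM in JX controls. It differed by 0.88 (SE 0.202, limma adjusted p = 0.0058). Neither gene's control groups overlapped. In the silenced libraries Gh_D09G014100 was at 15.7 ± 4.598 and 18.8 ± 2.96 FPKM and Gh_D05G008600 at 34.9 ± 3.27 and 37.5 ± 8.37 FPKM in 3798 and JX (SD, n = 4), with differences of 0.29 and 0.08 (SE 0.203 and 0.202) that did not pass (limma adjusted p = 0.71 and 0.93).

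Called differences in controls were between -1.36 and -0.45 for the 12 lower members and between 0.30 and 0.90 for the 7 higher ones. All 12 had the larger silenced/control ratio in JX, and 6 of the 7 had it in 3798, where the same controls enter both values. The exception was Gh_D05G312700 (chromosome D05), which was higher in JX controls by 0.55 (SE 0.148, limma adjusted p = 0.012) and higher in JX silenced libraries by 0.52 (SE 0.148, limma adjusted p = 0.51). It was at 14.1 ± 2.82 and 36.4 ± 4.05 FPKM in 3798, controls before silenced, and at 20.6 ± 0.696 and then 53.1 ± 9.87 FPKM in JX (SD, n = 4).

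Between the silenced libraries of the strains, 0 of 150 members differed by limma at an adjusted p under 0.05, and 0.0% of all genes tested. The smallest adjusted p of a member was 0.50. Without the 3 libraries that lie apart 0 members and 0.0127% of all genes passed by limma. At an unadjusted p under 0.05 there were 16 members (10.7%), against 7.89% of all genes. The differences lay between -0.96 and 1.04, with a median of 0.04 over members and 0.03 over all genes. Of the members 130 were within 0.5 of 0, where 111 were in the controls. These counts are a description, as the share of all genes within 0.5 of 0 was not counted. A difference that misses the threshold does not show equal levels, as the median standard error of 0.236 allows differences of such a size.

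**Figure D5:**
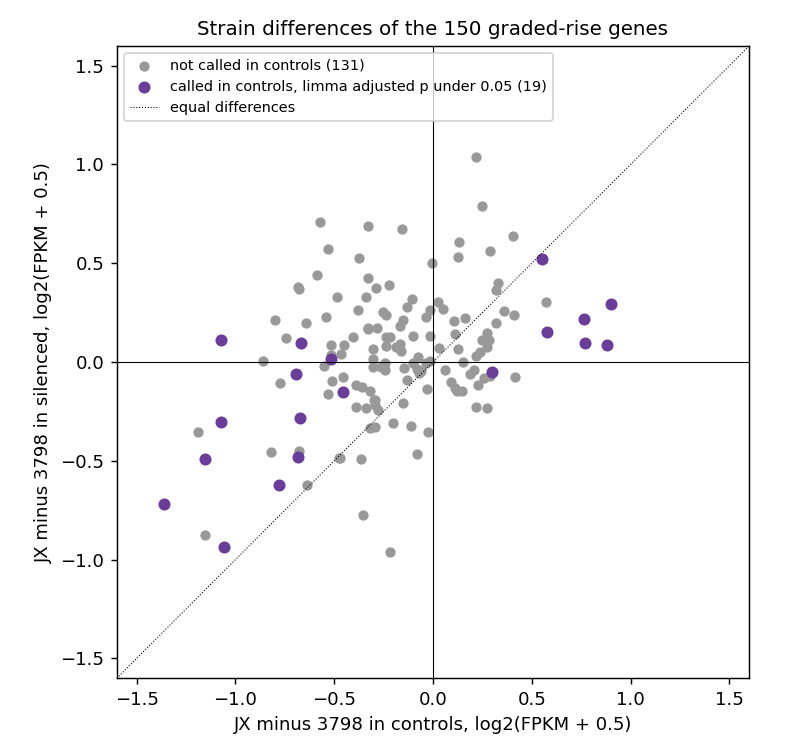
Difference JX minus 3798 in log2(FPKM + 0.5) in controls (x) and in silenced libraries (y) for the 150 genes; purple marks the 19 called in controls by limma. Points spread along x from -1.36 to 0.90, and 104 lie left of 0.

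The interaction term, JX minus 3798, tests whether the silenced-control difference itself was unequal in the strains. By limma 0 of 150 members passed an adjusted p of 0.05, and 0.00363% of all genes (2 of 55040, 1 higher and 1 lower, or 0.00182% each). At an unadjusted p under 0.05 there were 19 members (12.7%), against 21.7% of all genes. The rule holds both ratios between 2 and 8 and so limits this difference. It also chose and ranked the members on the ratios that make up the interaction, so the members' values here are a description. The median interaction was 0.22 over members and -0.0036 over all genes, above 0 in 105 members and below 0 in 45, where 50.4% of all genes tested were below 0.

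The member with the smallest p for the interaction was again Gh_A05G149100, with ratios of medians of 3.73 in 3798 and 6.57 in JX and an interaction of 0.64 (SE 0.138, limma adjusted p = 0.083). Next was Gh_A01G100900 (chromosome A01), with ratios of 2.63 and 5.61 and an interaction of 1.28 (SE 0.338, limma adjusted p = 0.093). It was at 5.09, 7.14, 4.76 and 5.18 FPKM in 3798 controls, 10.6, 16.4, 16.4 and 6.70 FPKM in 3798 silenced, 4.82, 2.50, 3.90 and 3.23 FPKM in JX controls and 19.2, 22.5, 16.4 and 20.8 FPKM in JX silenced libraries. In JX its groups lay far apart, and in 3798 silenced library 4 lay below control 2. Without 3798 control 3, 11 members (7.33%) passed the interaction by limma, against 15.6% of all genes. They were 7 above and 4 below 0, against 6.66% and 8.93% of all genes. Without this library and both silenced libraries 4 there were 15 members (10%), against 18.8%. They were 12 above and 3 below 0, against 7.66% and 11.2% of all genes. Gh_A05G149100 (0.69 and 0.70, limma adjusted p = 0.0057 and 0.0011) and Gh_A01G100900 (1.34 and 1.06, limma adjusted p = 0.022 and 0.026) were among them in both cases. Both genes also passed with library weights. In the 22 other alternatives neither passed (limma adjusted p from 0.051 to 0.17 and from 0.071 to 0.19). The genes were picked by their p on ratios the rule used, and the libraries left out had been seen to lie apart. These values are therefore a description.

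By their IDs the 150 genes were spread over the genome. There were 72 on A chromosomes (48.0%) and 63 on D chromosomes (42.0%), where the 44812 genes have 44.9% and 45.9%. A further 2 are on contigs and 13 (8.67%) are called newGene, against 7.96% of the 44812 genes. The newGene members had smaller ratios from 2.45 to 4.62. Chromosomes A05 and D05 held 11 members each (7.33%, against 5.48 and 5.31%) and A12 held 10 (6.67%, against 3.97%), while A02 held 1. The remaining chromosomes held from 2 to 8.

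Some members lay near each other by ID. Whether their number differs from that of genes placed at random was not tested. IDs on a chromosome step by 100, and 12 of the 135 members with a chromosome had another member within an ID distance of 1000, in 6 pairs. The closest pair was Gh_A08G125600 and Gh_A08G125700 on chromosome A08. Their 3798 control means were 42.0 ± 6.82 and 3.97 ± 1.08 FPKM (SD, n = 4), with ratios of 4.40 and 2.84 in 3798 and of 4.96 and 4.51 in JX. Gh_A08G125600 was lower in JX than in 3798 controls, with a difference of -0.68 (SE 0.163, limma adjusted p = 0.0071), whereas for Gh_A08G125700 the difference was -0.34 (SE 0.296, limma adjusted p = 0.41). The groups of Gh_A08G125600 did not overlap in either strain.

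The other pairs, with the ratios in 3798 and JX for each, were at ID distances of 200 to 700. They were Gh_D09G014100 (5.16 and 2.93) with Gh_D09G014300 (2.65 and 3.003), Gh_D08G269900 (3.27 and 2.60) with Gh_D08G270300 (2.78 and 3.38), and Gh_A06G001200 (3.04 and 2.45) with Gh_A06G001900 (4.14 and 6.02). A further pair, Gh_D12G113200 (2.68 and 2.53) with Gh_D12G113400 (2.61 and 2.92), had unlike spread. Gh_D12G113200 had 3798 means of 6.83 ± 1.04 FPKM in controls and 17.2 ± 1.55 FPKM when silenced, and Gh_D12G113400 of 13.5 ± 7.58 and 30.9 ± 17.5 FPKM (SD, n = 4). Gh_D13G248600 (2.61 and 2.48) and Gh_D13G248800 (2.57 and 3.35) had silenced means of 4.44 ± 0.425 and 11.8 ± 2.55 FPKM in 3798 (SD, n = 4). In each of these pairs the larger ratio was in 3798 for one gene and in JX for the other. In the main fit the interaction passed for none of the genes by limma, where Gh_D08G269900 had the smallest adjusted p, 0.12. Without 3798 control 3 this gene passed (-0.37, limma adjusted p = 0.0493), as it did with library weights (-0.33, limma adjusted p = 0.033).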

How the data were processed

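The authors deposited 1 table of FPKM, with 70422 gene IDs in 16 libraries. The unit comes from the table's name and values. Columns were matched to samples by the code in the description, and groups and replicate numbers come from the titles. The sources used here do not name the aligner, counter, genome build, annotation or strandedness. Reads of near-identical A and D copies could have been split or dropped in the counting, and those of overlapping genes joined.

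The members and lists were chosen with earlier results of these data known. No scaling was added, and 0 pairs of libraries held identical values. Relative depth is the most frequent ratio between libraries among genes under 0.3 FPKM. FPKM are not counts, so no count model was used. Genes at 0.5 FPKM or more in at least 4 libraries (55040) were tested on log2(FPKM + 0.5) with limma 3.58.1 in R 4.3.3, with 1 mean per group over all 16 libraries, a variance trend and robust estimation, two-sided, Benjamini-Hochberg adjusted over all genes, at a threshold of 0.05. The procedure was tested on simulated data, with values drawn independently for each gene and library. Deviations shared among the genes of a library were not simulated, so that test does not cover them.

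Named by set criteria were 32 members: the 8 with the highest smaller ratio, the 4 most abundant, those with the smallest p in each direction or contrast, the steadiest and least steady, those at the edges of the rule and the neighbouring pairs. Gossypium_hirsutum_newGene_9378 was named in addition to these, after its values were seen. Alternatives were other pseudocounts (0.1 and 1), filters, scalings, library weights, a replicate term, fits to the compared groups and libraries left out. Python 3.11.15 with numpy 2.4.6, pandas 2.3.3 and matplotlib 3.10.9 was used.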

Additional observations from a re-analysis of the deposited data

Results flagged for a closer look

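Among 140 groups of 4 values checked, 9 had 1 library far from the 3 others, where chance gives about 5%. Gh_D08G005100 was at 2.86 FPKM in 3798 control 1, with the next at 1.23 FPKM. Gh_A05G280600 was at 565 FPKM in 3798 control 2, with the next at 294 FPKM. In JX control 1, Gh_D05G008600 was at 14.02 FPKM (next 8.94), Gh_A05G149100 at 6.08 FPKM (next 5.33) and Gh_A10G222400 at 7.56 FPKM (next 1.57). In JX silenced 4, Gh_A05G149100 was at 28.7 FPKM (next 34.8), Gh_A06G001900 at 5.01 FPKM (next 7.61) and Gh_D08G269900 at 15.1 FPKM (next 18.2). In JX silenced 1, Gh_D05G312700 was at 38.3 FPKM (next 56.9).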

How the results depend on the processing

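In the controls 43 members (28.7%, against 43.2% of all genes) were called with library weights. Without the 3 libraries that lie apart it was 45 (30%, against 42.0%). The main fit called 19 (12.7%, against 29.8%), and fits with 1 library left out called 13 to 35. The counts with other pseudocounts, filters and scalings, with the compared groups only (20) and with the replicate block (20) lay within 1.5 times of 19. Between silenced libraries 0 members were called in each fit run. The interaction was called in 10 members with library weights (6.67%, against 18.6% of all genes) and in 15 without the 3 libraries (10%, against 18.8%). With 1 library left out it was called in 0 to 11. With the replicate block it was called in 0 members, as in the fit without the block. The cause of these shifts was not tested. The replicate numbers did not meet the criterion for pairing, a correlation over 0.1 in every pair: deviations of equally numbered libraries correlated from -0.41 to 0.37, over 0.1 in 6 of 24 pairs, and 5 of 16 libraries correlated best with their own number. Between the silenced groups of the strains the correlation was above 0 for each number (0.12, 0.066, 0.23 and 0.37). The rule was met by 552 genes with control medians of 0.5 FPKM or more and by 209 with 2 FPKM or more, and by 287 to 494 with libraries left out. The first 150 then shared 86, 84 and 101 to 142 genes with the members. Without the 3 libraries 375 genes met the rule, and 136 members still did. The first 150 then shared 110 genes with the members. The control differences of Gh_D09G014100, Gh_D05G008600, Gh_A05G149100 and Gh_A06G001900 passed in each of 26 alternatives, and the silenced differences of Gh_A06G001900 and Gh_D05G312700 in none. The other control calls of single genes were not compared across the alternatives. Absolute depth is unknown, so what it limits cannot be stated.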

Other observations

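The same rule with control and silenced exchanged was met by 331 genes, and the first 150 of these were placed on the same line from control to silenced. JX silenced 4 lay at 40.4% over these genes and at 79.0% over the 150 graded-rise genes, while 3798 silenced 4 lay at 83.0% and 81.2%. JX silenced 4 was the highest of its group, nearest to the controls, in 127 of the 150 graded-fall genes, and 3798 silenced 4 in 74. Over the 44812 genes with both control medians at 1 FPKM or more, these libraries were the highest of their group in 35.4% and 30.5%. The difference between the lists was not tested.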
